A study of Mus musculus with 5 samples.

Results

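The array of association neurons in L6b was compared with the array of association neurons in L5, gene by gene. Both arrays come from the primary somatosensory cortex (S1) of ICR mice at PD24, and they are 2 of the 5 arrays of the series. Their association neurons project from S1 to the primary motor cortex (M1) of the same hemisphere and callosal neurons project to S1 of the other hemisphere (cS1). Green RetroBeads, a retrograde tracer that is carried from the axon terminals to the cell body, had been injected into M1 or cS1 3 days before, and about 1000 labeled neurons per group were taken one at a time by laser microdissection and pooled, so that each group is 1 array. The other 3 arrays hold L2/3 association neurons, callosal neurons of L5, and callosal neurons of L2/3 from mice of the same strain and age. The paper shows the injected brains as having been electroporated in utero with a tdTomato plasmid, and no source used here gives the number of animals behind each pool. A group is therefore defined by the layer and the injected target, and it also holds any RNA of neighboring cells that was cut with the labeled neuron.

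The arrays were of the type Mouse Gene 1.0 ST, which reads a gene with several short probes, together its probe set. Of 19938 genes with a named probe set, 11846 reached the median signal of the array in L6b or in L5 and were compared, 10462 of them in both, 671 through L6b alone, and 713 through L5 alone. All signals are given as log2 above the median of their array, and a difference is the signal in association L6b less that in association L5, on the log2 scale. A gene counts as higher or lower here when the difference is at least 2-fold, which is 1.0 on the log2 scale. This is a rule of size. With 1 array per side there is no replicate spread, no test is possible, and each value describes these 2 libraries. Levels are set against each other between arrays only, never between genes. A lower signal from fewer cells of a type cannot be told apart from less RNA per cell.

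L6b is the deepest sheet of cortical neurons, above the white matter, and is largely what remains of the embryonic subplate (SP), a layer generated ahead of the cortical plate. SP neurons form transient circuits with incoming thalamic axons, and those that survive in L6b project within the cortex and to the thalamus. L5 holds intratelencephalic neurons, which project to other cortical areas and the striatum, and large extratelencephalic neurons, which project below the forebrain. The contrast between L6b and L5 neurons that share a target in M1 therefore sets layer identity side by side with the projection class held the same by tracer.

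The L6b array carried the L6b/SP markers. *Cplx3*, which encodes complexin 3, a protein that regulates the fusion of synaptic vesicles, had a signal of 5.22 in association L6b, 0.02 in association L5, 0.39 in callosal L5, -0.04 in association L2/3, and -0.37 in callosal L2/3. It was thus far above the median in L6b and near it elsewhere, and the L6b minus L5 difference of 5.20 (36.8-fold) ranked 4 of 11846. *Ccn2*, also known as *Ctgf*, which encodes a secreted matricellular growth factor, was at 4.63 in L6b and between 0.81 and 1.07 in the other 4 arrays, with a difference of 3.62 (12.3-fold) and rank 24. *Kcnab1*, which encodes a β subunit of Kv1 potassium channels, was at 2.41 in L6b, 0.11 in association L5, -0.11 in callosal L5, 0.07 in association L2/3, and -0.44 in callosal L2/3. Its difference was 2.30 (4.92-fold), rank 78. *Nr4a2* (Nurr1), an orphan nuclear receptor of the SP, was at 1.63 in L6b and between 0.19 and 0.34 in the other arrays, a difference of 1.29.

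The promoters of *Cplx3*, *Kcnab1*, and *Nr4a2* are shown because they border the annotated start sites of genes that mark L6b in this comparison. They are RefSeq sequences of the GRCm38.p6 build, 250 bases before to 50 bases after each annotated start site, in the direction of transcription. Capitals mark the TATA box letters TATAAA, found on either strand.

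*Cplx3*, chr9:57606232-57606531, minus strand: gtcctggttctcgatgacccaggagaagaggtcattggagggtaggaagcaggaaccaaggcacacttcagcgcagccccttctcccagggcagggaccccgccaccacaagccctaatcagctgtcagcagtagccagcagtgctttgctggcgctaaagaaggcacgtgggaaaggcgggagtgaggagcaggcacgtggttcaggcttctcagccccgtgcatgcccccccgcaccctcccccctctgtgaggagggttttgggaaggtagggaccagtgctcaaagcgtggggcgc
*Kcnab1* start site 1, chr3:64948962-64949261, plus strand: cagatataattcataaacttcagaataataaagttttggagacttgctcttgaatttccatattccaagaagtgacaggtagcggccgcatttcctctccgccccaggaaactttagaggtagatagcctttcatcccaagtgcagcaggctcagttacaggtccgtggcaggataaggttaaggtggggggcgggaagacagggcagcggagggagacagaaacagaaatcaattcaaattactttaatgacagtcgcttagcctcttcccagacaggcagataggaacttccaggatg
*Kcnab1* start site 2, chr3:65108764-65109063, plus strand: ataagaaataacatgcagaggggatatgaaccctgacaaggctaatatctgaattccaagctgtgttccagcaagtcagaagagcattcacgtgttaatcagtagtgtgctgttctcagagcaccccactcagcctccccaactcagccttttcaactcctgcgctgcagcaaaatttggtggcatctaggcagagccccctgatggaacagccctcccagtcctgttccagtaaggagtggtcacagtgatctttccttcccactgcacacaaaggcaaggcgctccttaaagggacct
*Kcnab1* start site 3, chr3:65187853-65188152, plus strand: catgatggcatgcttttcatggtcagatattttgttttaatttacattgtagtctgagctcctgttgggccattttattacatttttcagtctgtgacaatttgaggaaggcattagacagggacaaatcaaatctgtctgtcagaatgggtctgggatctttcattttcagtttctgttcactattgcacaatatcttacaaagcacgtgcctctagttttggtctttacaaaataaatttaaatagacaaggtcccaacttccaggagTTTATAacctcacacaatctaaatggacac
*Nr4a2*, chr2:57123954-57124253, minus strand: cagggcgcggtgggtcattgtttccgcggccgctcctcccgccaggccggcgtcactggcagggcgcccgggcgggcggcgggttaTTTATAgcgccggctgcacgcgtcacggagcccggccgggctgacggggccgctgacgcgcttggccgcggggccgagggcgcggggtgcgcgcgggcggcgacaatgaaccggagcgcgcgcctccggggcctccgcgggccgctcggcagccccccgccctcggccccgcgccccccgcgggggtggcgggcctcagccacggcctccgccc

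The promoters differ in base composition. GC content was 62.7% for *Cplx3*, 81.7% for *Nr4a2*, and 46.7%, 50.3%, and 36.7% for the 3 *Kcnab1* start sites. CpG dinucleotides numbered 52 in the *Nr4a2* window and 11 in that of *Cplx3*, and 7, 3, and 1 in the *Kcnab1* windows. The letters TATAAA were found in the *Nr4a2* window and in that of *Kcnab1* start site 3. Both matches are on the strand opposite to transcription and read TTTATA as printed. The first printed base lies 164 bases before the start site of *Nr4a2* and 20 bases after *Kcnab1* start site 3. The letters TATAAA occur in 13.6% of all 32851 promoters of the same length. The E-box letters CANNTG matched 3 times in the *Cplx3* window, 1 time in each *Kcnab1* window, and not in that of *Nr4a2*, and 72.3% of all promoters hold them. Neither the NR4A letters AAAGGTCA (1.51% of all promoters) nor the cAMP response element letters TGACGTCA (1.79%) occurred in these windows on either strand. The array does not tell which of the *Kcnab1* start sites was in use. By in situ hybridization, the paper detected only 1 of 3 variants with alternative first exons in the cortex. The window of start site 1 holds a primer sequence that the paper used for a variant it did not detect there.

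Of the 8 genes on the list of L6b/SP markers, 6 were compared and 4 passed 2-fold toward L6b. The other two compared were *Tpd52l1* (0.69) and *Nxph4* (0.47), which lay above all other arrays by less than 2-fold. *Inpp4b* and *Htr1d* were below the median in both arrays. The median difference of the 6 was 1.79, beside -0.03 over all compared genes. Of all compared genes, 3.72% had a signal at least 2-fold higher in L6b and 7.56% had one at least 2-fold lower. These genes are a check of the label, and *Kcnab1* was picked by the study from these same arrays, so that its direction is no separate finding. The paper also names *Ctgf* (*Ccn2*) among the L6b candidates that it took from these arrays. The count of 4 and the median of 1.79 include both genes, and also *Cplx3*, a marker chosen for this comparison. Neither value is therefore separate support. A further list of L6b/SP genes had 12 of 17 members compared, a median of 0.64, 4 higher, and 0 lower. These 4 were *Trh* (2.65), which encodes thyrotropin-releasing hormone, *Moxd1* (2.58), a monooxygenase homolog, *Hs3st4* (2.06), a heparan sulfate sulfotransferase, and *Cdh18* (1.49), a cadherin. *Trh* was at 2.51 in L6b and between -0.14 and 0.20 elsewhere, and *Moxd1* was at 1.70 in L6b and -0.88 in association L5. Both genes passed the filter through L6b alone, so neither could count as lower. *Cdh18* was at 4.99 in L6b, 3.5 in association L5, 4.27 and 3.80 in association and callosal L2/3, and 0.16 in callosal L5, so its signal was low in callosal L5 and not in L5 as such. The 8 members within 2-fold ran from 0.94 (*Nxph3*) to -0.03 (*Rgs12* and *Ngfr*), with *Unc5c* at -0.01. *Hcrtr2*, *Svil*, *Serpinb11*, *Pappa2*, and *Abca8a*, which are also on this list, were below the median in both arrays.

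**Figure D1:**
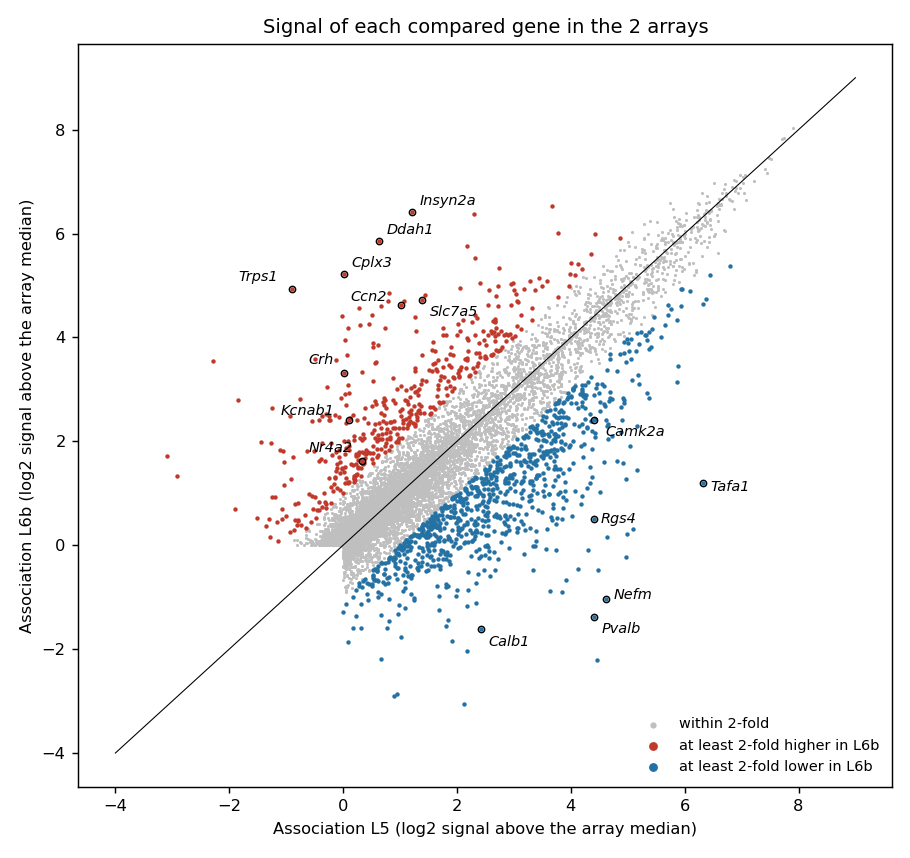
Log2 signal above the array median in association L5 (horizontal axis) and association L6b (vertical axis) for the 11846 compared genes. Red points are the 441 genes at least 2-fold higher in L6b, blue points the 896 at least 2-fold lower, gray points the rest, and the line marks equal signal. *Cplx3* (5.22 against 0.02) lies far above the line and *Pvalb* (-1.38 against 4.41) far below it.

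Across all compared genes, association L6b was at least 2-fold higher in 441 and at least 2-fold lower in 896, 2.03 lower genes for each higher gene. At 4-fold the counts were 119 and 240, at 8-fold 42 and 58, and at 16-fold 14 and 17. The quartiles of the difference were -0.24 and 0.17, and its 5th and 95th percentiles were -1.28 and 0.84. In 1688 genes (14.2%) both arrays had the same deposited value. The genes closest to the 2-fold limit had differences of 1.0 inside and 0.99 outside it in both directions. Of the higher genes 94 (21.3%) were below the median in L5, and of the lower genes 210 (23.4%) were below the median in L6b, so that part of these differences rests on dim signals.

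The excess of lower genes was largest among bright genes. Genes were ordered by their mean signal in the other 3 arrays and divided into 10 bins of equal size, bin 1 the dimmest. The share at least 2-fold lower in L6b was 1.60% in bin 2, 12.2% in bin 8, 19.3% in bin 9, and 14.7% in bin 10. The share at least 2-fold higher was 1.27% in bin 2, 7.76% in bin 8, 7.6% in bin 9, and 4.14% in bin 10. Lower genes outnumbered higher ones in all 10 bins, with 7.68% against 4.64% in bin 1. The median difference was -0.13 in bin 9 and -0.11 in bin 10, and between -0.03 and 0.04 in the other 8. The shares that were lower in L6b were thus largest in bins 8 to 10.

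**Figure D2:**
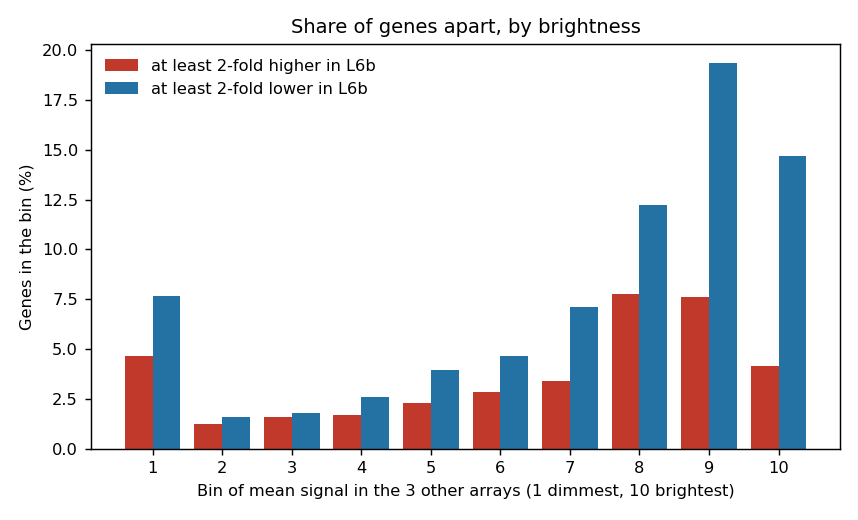
Share of each bin in percent (vertical axis) that was higher (red) or lower (blue) in association L6b than in association L5 by 2-fold or more, for 10 bins of mean signal in the 3 other arrays from dimmest to brightest (horizontal axis). The blue bars reach 19.3% and 14.7% in bins 9 and 10, and the red bars are at most 7.76%.

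The largest differences toward L6b were found in genes of varied function. *Trps1*, a zinc-finger transcriptional repressor, differed by 5.83, with 4.94 in L6b and a dim -0.89 in association L5. It was at -1.26 in callosal L5 but at 2.33 and 2.73 in association and callosal L2/3, so it was low in both L5 arrays. The difference was 4.94 with signals under the median set to the median and 3.035 as a mean over its probe sets, of which the other was dim in both arrays and differed by 0.24. *Insyn2a*, which encodes a protein of the inhibitory postsynapse, was at 6.41 in L6b, 1.21 in association L5, and between 0.84 and 1.84 in the other arrays, a difference of 5.20. *Nxt1* (4.28), a factor of mRNA export, *Tnmd* (4.09), which encodes tenomodulin, *Pcbd2* (4.08), a cofactor of HNF1 transcription factors, *Lhfpl3* (4.05), and *Nsmce2* (3.92), a SUMO ligase, were likewise nearer to L5 than to L6b in each other array. *Tnmd* was at 3.59 in L6b and between -0.85 and -0.47 elsewhere, and *Pcbd2* was at 6.38 in L6b and between 0.87 and 2.31 elsewhere.

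Other genes among the 15 highest were set by a low signal in the L5 array. *Ddah1*, which encodes an enzyme that degrades inhibitors of nitric oxide synthase, was at 5.86 in L6b and 0.63 in association L5, a difference of 5.23, but at 4.35, 4.31, and 4.57 in callosal L5, association L2/3, and callosal L2/3. *Mdga2*, an adhesion protein that binds neuroligins, was at 3.96 in L6b, 0.03 in association L5, and between 2.98 and 4.09 in the others. Its other probe set differed by 0.31. *Csmd3* (4.09) followed the same pattern, and its 7 probe sets ranged from -0.24 to 6.62. *Styx* (3.89), a pseudophosphatase, was low in both L5 arrays like *Trps1*, at -1.24 and -0.70, and its other probe sets differed by -0.03 and 1.15. *Igbp1* (3.80), *Cyb5d1* (3.95), and *Rab8b* (3.93) had mixed patterns. *Cyb5d1* was at 4.10 in callosal L5, close to its 4.24 in L6b.

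Of the 15 lowest differences, 11 were of genes in which the arrays outside the comparison were all nearer to L5, and 3 were of genes in which they were all nearer to L6b. *Pvalb*, which encodes the calcium-binding protein parvalbumin, was at -1.38 in L6b, 4.41 in association L5, 4.52 in callosal L5, 4.57 in association L2/3, and 2.26 in callosal L2/3. The difference was -5.79, or -4.41 with signals under the median set to the median, since its L6b signal was dim. *Nefm*, which encodes the medium neurofilament chain of axons, was at -1.03 in L6b and between 4.62 and 5.53 in the other arrays, a difference of -5.65, or -4.62 with the same floor. *Tafa1*, a secreted chemokine-like protein of the brain, was at 1.19 in L6b, 6.32 in association L5, and between 6.18 and 7.03 in the rest. These 3 genes separated L6b from every other array by more than 3 on the log2 scale.

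The same pattern held for *Rgs4*, a regulator of G protein signaling, which was at 0.50 in L6b, 4.40 in association L5, and between 5.21 and 5.87 in the others. *Calb1*, which encodes calbindin and is strong in upper layers, was at -1.62 in L6b, 2.42 in association L5, 3.15 in callosal L5, and 5.82 and 5.55 in association and callosal L2/3. It was lowest in L6b, intermediate in L5, and highest in L2/3. *Tmem196* (-4.78), *Lclat1* (-4.77), an acyltransferase of cardiolipin, *Tmem106b* (-4.59), a lysosomal membrane protein, *B3gnt2* (-4.52), a glycosyltransferase, *Tmem218* (-4.40), and *Prmt8* (-3.81), an arginine methyltransferase of the brain, were also nearer to L5 than to L6b in each other array. In contrast, *Fryl* (-5.19), *E2f3* (-4.95), a transcription factor of the cell cycle, and *Ccdc74a* (-4.47) were bright in association L5 alone. *E2f3* was at 4.47 in association L5 and at -0.39 or lower elsewhere, and *Fryl* was at 4.97 and between -0.55 and 0.60. The other probe sets of *Fryl* differed by 0.0 and -0.03, and that of *E2f3* by -1.38. *Zfp949* (-4.21) was bright in both L5 arrays, at 2.17 and 3.10, and at -2.04 in L6b.

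**Figure D3:**
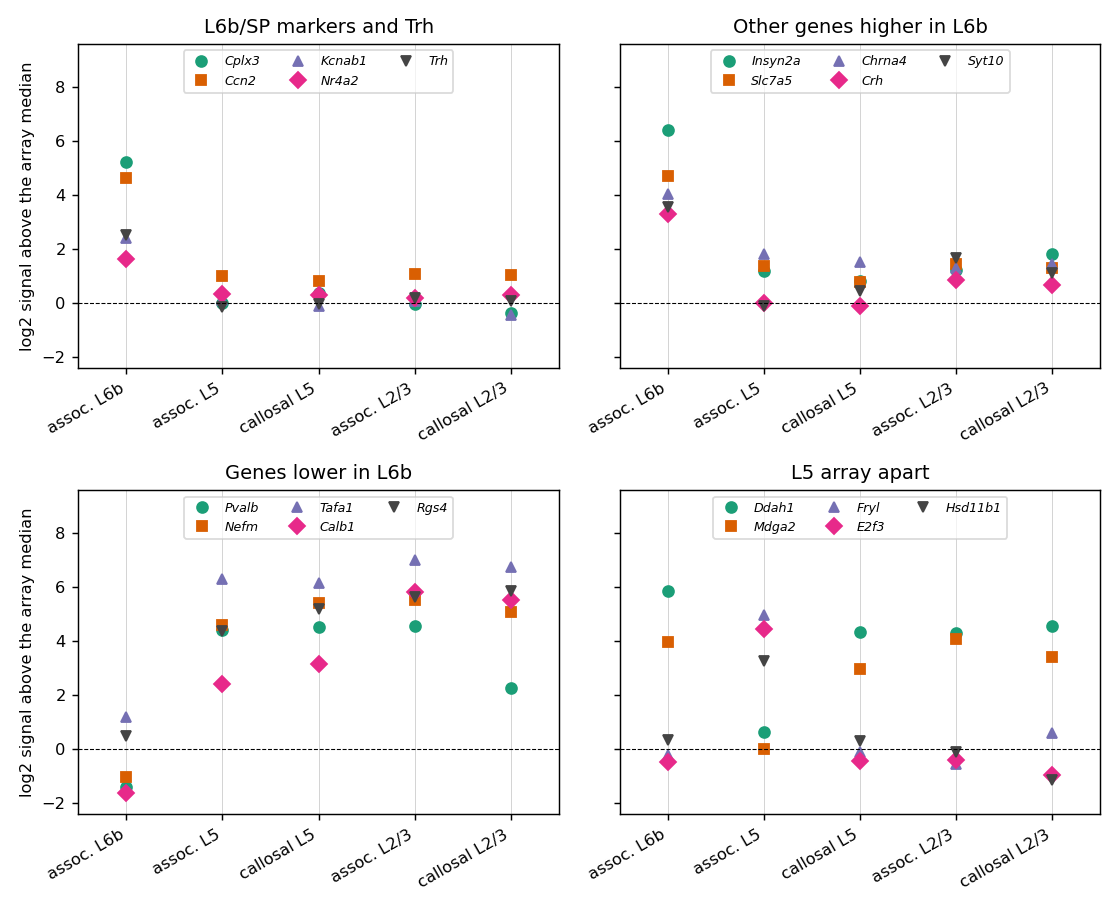
Log2 signal above the array median (vertical axis) of 20 genes in the 5 arrays (horizontal axis), 1 symbol per gene and array, with the median dashed. *Cplx3* and *Insyn2a* stand high in L6b only, *Pvalb* and *Nefm* low in L6b only, and *Ddah1* low and *E2f3* high in association L5 only.

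The 3 arrays that did not enter the comparison were used to see which side of it stood apart. For each gene at least 2-fold apart, each other array was counted as nearer to L5 or nearer to L6b, with the limit midway between both signals. Of the 441 higher genes, all 3 other arrays were nearer to L5 in 177 (40.1%) and all 3 were nearer to L6b in 142 (32.2%). Of the 896 lower genes these counts were 415 (46.3%) and 225 (25.1%). The L6b array was thus the one apart more often among lower than among higher genes. Callosal L5 sided with association L5 while both L2/3 arrays sided with L6b in 16 higher genes (3.63%) and in 36 lower genes (4.02%). Association L2/3 sided with L6b while both callosal arrays sided with L5 in 23 (5.22%) and 38 (4.24%). The remaining 83 and 182 genes had other splits. Few genes therefore set both L5 arrays against the other 3. Sex-linked genes also separated the arrays used here. *Xist*, the RNA of the silenced X chromosome, had signals of 2.31, 1.47, and 2.55 in the association arrays of L6b, L5, and L2/3, and of -1.48 and -0.88 in callosal L5 and callosal L2/3. *Eif2s3y*, a Y-linked gene, was at 2.45 and 2.90 in the callosal arrays and at -2.46, -2.47, and -2.61 in those of association neurons. L6b and L5 were thus alike in these genes while the callosal arrays stood apart from both, and the part of this in the splits was not tested. The deposited values of the 3 other arrays were identical in 9.58% of all compared genes, 3.17% of the higher genes, and 3.46% of the lower genes.

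**Figure D4:**
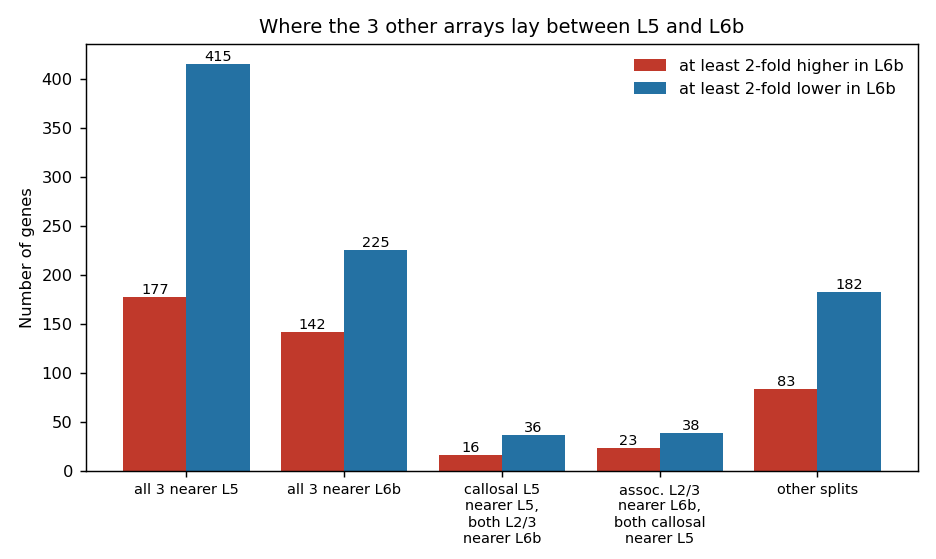
Counts (vertical axis) of the 441 genes higher (red) and the 896 lower (blue) in association L6b than in association L5, by which of both signals the association L2/3, callosal L5, and callosal L2/3 arrays were nearer to (horizontal axis). All 3 nearer to L5 is the most frequent split, with 177 and 415 genes.

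Association L6b and L5 differed by at least 2-fold in 1337 genes (11.3% of those compared). Over the 10 pairs of arrays, each with its own compared genes, the share ran from 9.05% between association L5 and callosal L5 to 14.1% between association L6b and association L2/3. All 4 pairs with L6b had shares of at least 11.3%, and of the 6 pairs without it only association L5 with association L2/3 (11.5%) reached this. An excess of lower genes was not particular to L6b. Association L5 was higher in 440 and lower in 926 genes against association L2/3. The counts were 439 and 625 against callosal L5, and 479 and 743 against callosal L2/3. These pairs share arrays and are given side by side. Genes higher in L6b had a median length of 24.2 kb, those lower in L6b 19.5 kb, and all compared genes 19.7 kb.

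The list counts below stand beside 3.72% higher and 7.56% lower over all compared genes. In brightness bins 8 to 10, from 12.2% to 19.3% of genes were lower. For some genes named below the L5 array stood apart, with the other arrays all nearer to L6b. These include *S100a10*, *Pcp4l1*, *Hcn2*, *Syt5*, *Sema6d*, *Slc7a6*, *Ndufs7*, *Mag*, *Olig2*, and *Slco1a4*. Among genes of other layers, the L6a corticothalamic list had its median at 0.49, with 3 of 9 compared members higher and 0 lower. *Tle4*, a transcriptional corepressor of deep layers, was at 2.91 in L6b, 0.04 in association L5, and between -0.28 and 0.07 elsewhere, a difference of 2.87. *Sla* (1.60) and *Nfia* (1.11) were the other two, and each came under 2-fold in an alternative, at 0.44 with signals under the median set to the median and at 0.64 as a mean over probe sets. The other 6 compared members were within 2-fold and went both ways. *Rprm* (0.63), *Sulf1* (0.49), and *Syt6* (0.23) leaned toward L6b, and *Tbr1* (-0.52), *Sox5* (-0.06), and *Zfpm2* (-0.06) toward L5. *Tbr1* was at 3.60 in L6b, 4.12 in association L5, and between 4.24 and 4.36 elsewhere. *Foxp2* and *Ntsr1*, further markers of corticothalamic neurons, were below the median in both arrays.

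Genes of L5 intratelencephalic neurons had a median of -0.28, with 4 of 10 lower and 1 higher. *Rbp4*, a retinol carrier used to target L5, was at 0.53 in L6b, 3.76 in association L5, 1.12 in callosal L5, 2.23 in association L2/3, and 2.20 in callosal L2/3. *Hsd11b1*, a glucocorticoid-activating enzyme, was at 0.34 in L6b and 3.29 in association L5 but at 0.31 in callosal L5. *Dkkl1* was at 0.05 in L6b, 1.57 and 1.90 in association and callosal L5, and -0.15 and 0.18 in L2/3, so it marked both L5 arrays. *Etv1* (-1.30), an ETS factor of L5, was also lower, and *Arhgap25* (1.11) was higher. Of 13 genes of L5 extratelencephalic neurons, 2 were lower and 0 higher, with a median of 0.14. These were *S100a10* (-1.32) and *Fezf2* (-1.07), the determinant of subcortical projection, which was at 0.32 in L6b, 1.39 and 2.04 in association and callosal L5, and -0.20 and -0.34 in L2/3. Of 3 compared L4 genes none was 2-fold apart, with *Rorb* at -0.30.

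Genes of L2/3 were lower in L6b than in L5 in 5 of 15 members (33.3%, beside 7.56% overall) and higher in 0, with a median of -0.40. Beside *Calb1* these were *Pou3f2* (-1.88), the POU factor Brn2, *Unc5d* (-1.62), a netrin receptor, *Lamp5* (-1.09), and *Cbln2* (-1.02). For each of these 5 the L6b array had the lowest signal and the 3 other arrays were nearer to L5. *Cbln2* was just past the limit. *Lamp5* was at 2.41 in L6b, 3.5 and 3.37 in association and callosal L5, and 5.59 and 5.32 in association and callosal L2/3. *Unc5d* was at -0.82 as a mean over its probe sets and *Lamp5* at -0.94 after quantile normalization.

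**Figure D5:**
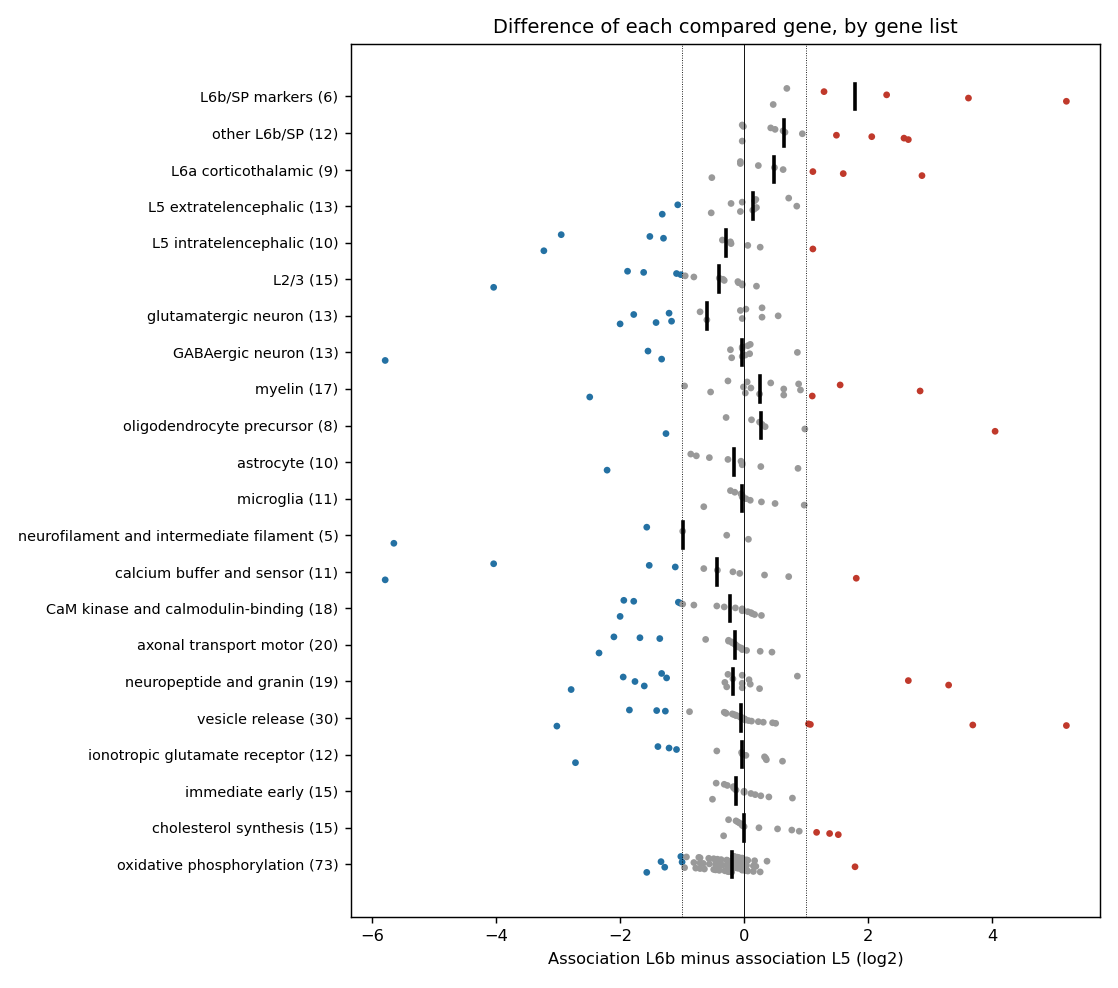
L6b minus L5 difference in log2 (horizontal axis) of each compared member of 22 gene lists (vertical axis, number of compared members in brackets), red at least 2-fold higher, blue at least 2-fold lower, gray in between. Black bars mark list medians, 1.79 for the L6b/SP markers and -0.99 for the neurofilament list, and dotted lines mark 2-fold.

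Genes that mark mature glutamatergic neurons were lower in L6b in 5 of 13 members (38.5%) and higher in 0, with a median of -0.60. The share of lower genes was 7.56% over all compared genes, and 19.3% and 14.7% in brightness bins 9 and 10. How much of the list's share goes with brightness was not tested. *Camk2a*, the α subunit of CaMKII, was at 2.41 in L6b, 4.41 in association L5, and between 4.91 and 5.75 in the other arrays. *Nrgn* (-1.78), the calmodulin-binding postsynaptic protein neurogranin, *Nrn1* (-1.42), neuritin, *Grin2b* (-1.21), an NMDA receptor subunit, and *Slc30a3* (-1.17), the vesicular zinc transporter, were lower as well, and in all 5 the other arrays were nearer to L5. The vesicular glutamate transporter *Slc17a7* was at 3.98 in L6b and 4.01 in L5, and *Neurod6* at 3.08 and 2.79, so that these defining genes of excitatory cortical neurons were above the median in both arrays.

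Some genes of the axonal cytoskeleton and of axonal transport were lower in L6b. Of 5 neurofilament and intermediate filament genes 2 were lower, *Nefm* and *Nefl* (-1.57), *Nefh* was just short of the limit at -0.99, and *Ina* (-0.28) and *Prph* (0.07) were well within it. *Nefl* was at 2.93 in L6b and between 4.5 and 4.67 in the other 4 arrays. Of 20 genes of axonal transport motors 4 were lower (20.0%) and 0 higher, with a median of -0.15. The share of lower genes was 7.56% over all compared genes, and 19.3% and 14.7% in brightness bins 9 and 10. The motor list thus had a share close to that of bright genes in general. They were *Kif5a* (-2.34), a kinesin heavy chain of neurons, *Dynll2* (-2.10), a dynein light chain, *Kif3a* (-1.68), and *Dync1i2* (-1.36). *Kif5a* was at 0.76 in L6b and between 3.03 and 3.62 in the others, and for all 4 the other arrays were nearer to L5.

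Calcium-handling genes held 4 lower members and 1 higher member of 11 buffers and sensors, with a median of -0.43. After *Pvalb* and *Calb1* came *Cabp1* (-1.53), which regulates calcium channels, and *Necab1* (-1.11). *Caln1* was higher (1.81), from -1.31 in L5 to 0.50 in L6b, both dim, and the difference was 0.50 with signals under the median set to the median. CaM kinase and calmodulin-binding genes were lower in 5 of 18 members (27.8%, beside 7.56% overall) and higher in 0, with a median of -0.23. These were *Camk2a*, *Nrgn*, *Pcp4l1* (-1.94), *Camk1g* (-1.06), and *Camkk2* (-1.03). Of 15 RGS genes *Rgs4* alone was 2-fold apart, and of 5 TAFA genes *Tafa1* and *Tafa2* (-1.11) were.

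Peptide ligands differed in both directions. Of 19 neuropeptide and granin genes 2 were higher and 6 lower (31.6%, beside 7.56% overall), with a median of -0.18. *Crh*, which encodes corticotropin-releasing hormone, was at 3.32 in L6b, 0.02 in association L5, -0.09 in callosal L5, 0.86 in association L2/3, and 0.67 in callosal L2/3, a difference of 3.30 (9.85-fold). With *Trh* it made the 2 higher peptides, both at or near the median in L5. The lower ones were *Tac1* (-2.79), the substance P precursor, *Npy* (-1.95), *Chgb* (-1.76), a granin of dense-core vesicles, *Penk* (-1.61), the enkephalin precursor, *Sst* (-1.33), and *Cartpt* (-1.25). *Tac1* was at -1.77 in L6b, 1.02 in association L5, and 3.32 in callosal L5. *Cck*, the peptide of many cortical neurons, was at 4.97 in L6b and 5.00 in L5. Of 13 neuropeptide receptor genes 2 were lower, *Oprl1* (-2.04) and *Sstr2* (-1.72), in both cases with the L5 array apart, and *Trhr* was below the median in both arrays. None of 10 monoamine receptor genes and none of 8 neurotrophin and receptor genes was 2-fold apart.

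Potassium channels also differed in both directions. Of 10 compared Kv1 and Kvβ genes, *Kcnab1* was the one higher gene, and *Kcna2* (-1.26), a pore subunit, the one lower. *Kcna1* was at 1.72 in L6b and 1.57 in L5, *Kcna4* at 1.5 and 1.17, *Kcnab2* at 2.26 and 2.60, and *Kcnab3* at 0.01 and 0.16, so these pore subunits and the other two β subunits differed by less than 2-fold. The *Kcna2* difference was -0.66 as a mean over its probe sets. Of 7 A-type channel genes 2 were lower, *Kcnd2* (-2.09), the Kv4.2 pore, and *Dpp6* (-1.52), its auxiliary subunit, and 2 were higher, the KChIP genes *Kcnip4* (1.78) and *Kcnip3* (1.05). *Kcnd2* was at 0.04 in L6b and between 2.13 and 3.01 in the others, while *Kcnip4* was low in association L5 (0.56) and between 1.97 and 3.08 elsewhere. *Dpp6* was at -0.78 as a mean over its probe sets. *Kcnc2* (-1.61), a Kv3 subunit of fast-spiking cells, was the lower member of 11 Kv2, Kv3, and silent subunit genes, and *Kcnq5* (-1.58) and *Hcn2* (-1.05, or -0.99 at another scaling) the lower ones of 11 M-current, HCN, and calcium-activated genes.

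Of 6 sodium channel genes *Scn1a* was lower (-1.93) and *Scn3b* higher (1.73), the latter with the L5 array apart. Of 11 calcium channel genes *Cacna2d1* (-2.24) and *Cacna2d3* (-1.01) were lower and *Cacna1e* (1.16) was higher. *Cacna1e* was at 1.66 in L6b, 0.50 in association L5, and between 1.36 and 2.43 elsewhere, so the L5 array stood apart. *Cacna2d1*, which encodes an α2δ subunit, was at 1.46 in L6b and between 3.70 and 4.98 in the others. *Cacna2d3* crossed the limit under other scalings, with -0.98 in values as deposited.

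Among receptors for fast transmission, 4 of 12 ionotropic glutamate receptor genes were lower (33.3%, beside 7.56% overall) and 0 higher, with a median of -0.03. *Gria4* (-2.72), an AMPA receptor subunit, was at 0.34 in L6b and between 3.04 and 3.38 in the other 4 arrays. *Grin2a* (-1.39), *Grin2b* (-1.21), and *Neto2* (-1.09) were the others. *Neto2* was at 0.44 in L6b, 1.53 in association L5, and between 0.47 and 0.50 elsewhere, so the L5 array stood apart. *Grm5* (-2.53) was the lower gene of 5 metabotropic receptors. Of 7 GABA-A receptor genes 2 were higher, *Gabra5* (1.68), a subunit of extrasynaptic receptors, and *Gabrb2* (1.26), and *Gabrg3* (-1.58) was lower. The *Gabrb2* difference was 0.77 as a mean over its probe sets. Its signal was 5.61 in L6b, 4.35 in association L5, and between 5.21 and 5.84 elsewhere, so again the L5 array stood apart. Of 6 inhibitory synapse genes *Insyn2a* was higher and none was lower. *Chrna4*, the α4 subunit of nicotinic acetylcholine receptors, was at 4.05 in L6b, 1.81 in association L5, and between 1.29 and 1.52 elsewhere, a difference of 2.24, and it was the one gene 2-fold apart of 8 acetylcholine receptor genes.

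Of 30 genes of vesicle release 4 were higher and 4 lower (13.3% each). The higher ones were *Cplx3*, *Syt10* (3.69), a synaptotagmin, *Syt5* (1.07), and *Syt1* (1.04), the calcium sensor of fast release. *Syt10* was at 3.57 in L6b, -0.12 in association L5, and between 0.45 and 1.68 in the others, whereas *Syt1* was at 5.91 in L6b, 4.87 in association L5, and between 5.93 and 6.13 in the others, so that it was the L5 array that stood apart. The lower ones were *Syt4* (-3.02), *Stx1a* (-1.85), a plasma membrane SNARE, *Cplx1* (-1.41), and *Syt11* (-1.27). Among complexins, *Cplx1* was at 3.74 in L6b, 5.15 in both L5 arrays, and 4.49 and 4.36 in L2/3, *Cplx2* differed by -0.29, and *Cplx4* was below the median in both arrays. *Cplx3* and *Cplx1* thus differed in opposite directions. Core genes such as *Snap25* (0.01) and *Syp* (-0.13) were alike to within 0.2. None of 14 postsynaptic scaffold genes was 2-fold apart, and of 9 neurexin, neuroligin, and LRRTM genes *Nlgn1* (-1.55) was lower.

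Guidance and adhesion genes were mostly within 2-fold, like the compared genes as a whole, of which 11.3% were apart. Of 27 Eph, ephrin, Slit, Robo, and netrin genes, *Epha4* (-2.47) and *Unc5d* were lower and 0 higher. *Epha4* was at 0.61 in L6b and between 3.08 and 4.34 in the others. Of 20 semaphorin, plexin, and neuropilin genes, *Sema3a* (1.14) and *Sema6d* (1.04, or 0.82 with signals under the median set to the median) were higher and *Plxna4* (-1.30) and *Sema7a* (-1.13) lower. *Sema3a*, a repellent for growing axons, was at 2.66 in L6b, 1.52 and 0.58 in association and callosal L5, and 2.92 and 3.10 in L2/3, so both L5 arrays were low. Of 22 cadherin and contactin genes 2 were higher and 4 lower, among them *Cntn6* (2.83), *Cdh18*, *Cdh12* (-2.67), and *Cntnap5a* (-1.79). *Cntn6* was at 2.53 in L6b, 1.12 and 0.40 in association and callosal L2/3, and -0.30 and -0.64 in association and callosal L5. Of 8 matrix and CCN genes *Ccn2* and *Ccn1* (1.53) were higher. *Ccn1* was at 1.76 in L6b and between 0.23 and 0.28 in all others. *Hs3st4* was the one gene 2-fold apart of 9 heparan sulfate enzymes.

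The counts of metabolic lists stand beside 3.72% higher and 7.56% lower over all compared genes. *Slc7a5*, the large neutral amino acid transporter, was at 4.72 in L6b, 1.39 in association L5, and between 0.79 and 1.45 elsewhere, a difference of 3.33 (10.1-fold), and of 9 amino acid transporter genes *Slc7a6* (-1.55) was lower. Of 15 cholesterol synthesis genes 3 were higher (20.0%) and 0 lower, with a median of 0.0. These were *Fdft1* (1.52) and *Sqle* (1.38), which make and oxidize squalene, and *Idi1* (1.17). The *Fdft1* difference was 0.82 as a mean over its probe sets. Callosal L5 was close to L6b for *Fdft1* (3.87 and 4.12) and for *Idi1* (1.94 and 2.31). The summed signal of the list was 60.1 in L6b, 37.8 in association L5, and 71.1 in callosal L5. It was 43.8 and 38.3 in association and callosal L2/3, so L6b was not the highest. Oxidative phosphorylation genes had a median of -0.20, with 1 of 73 higher and 5 lower, glycolysis genes -0.22 with 2 of 13 lower, ribosomal protein genes -0.17 with 1 of 55 higher and 3 lower, and proteasome genes -0.12 with 4 of 37 lower. Members of these lists were *Ndufs8* (1.79), *Ndufs7* (-1.57), *Ldhb* (-1.26, or -0.92 as a mean over probe sets), *Rpl12* (1.90), *Rps27l* (-2.63), and *Psmb3* (-2.27), and ribosomal probe sets may be shared with pseudogenes. Of 18 cyclic nucleotide enzyme genes *Prkar1b* (-2.08), a regulatory subunit of protein kinase A, and *Pde8b* (-1.23) were lower.

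Markers of other cell types also differed between both arrays. Of 13 GABAergic neuron genes 3 were lower and 0 higher, *Pvalb*, *Gad1* (-1.55), and *Sst*. The summed linear signal of the list, as a multiple of the array median, was 25.2 in L6b, 57.0 in association L5, and between 47.6 and 72.2 in the other arrays. Such a sum follows its largest terms and does not stand for the list as a whole. Much of the gap between L6b and L5 came from *Pvalb* (-1.38 and 4.41) and *Sst* (2.45 and 3.78). *Gad1*, the enzyme of GABA synthesis, was at 0.45 in L6b and 2.00 in L5, *Gad2* at 0.25 and 0.45, and *Slc32a1*, the vesicular GABA transporter, at 1.93 and 2.15. The list median was -0.03, or -1.44 over the 4 members that reached the 75th percentile of either array. *Pvalb* and *Gad1* reached it through L5 alone, so this filter itself favors a negative median. *Dlx5*, *Adarb2*, *Htr3a*, and *Ndnf* were below the median in both arrays. The part of interneuron RNA in the differences of *Pvalb*, *Sst*, *Npy*, *Tac1*, *Crh*, and *Kcnc2*, which such cells express, was not tested.

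Of 17 myelin genes 3 were higher, *Mog* (2.84), *Opalin* (1.55), and *Fa2h* (1.10), and *Mag* (-2.49) was lower, with a median of 0.25. *Mog* was at 4.12 in L6b and 1.28 in association L5, *Mag* at 1.47 and 3.96, *Mbp* at 2.94 and 2.03, and *Mobp* at 3.29 and 3.83, so the members did not differ in 1 direction. Their summed signal was 78.8 in L6b, 67.8 in association L5, 46.1 in callosal L5, and 25.3 and 26.5 in association and callosal L2/3, so it was greatest in the deep layers. Of 8 oligodendrocyte precursor genes *Lhfpl3* was higher and *Olig2* lower, by -1.26 or, with signals under the median set to the median, -0.91, and *Pdgfra* was at 0.12 in L6b and -0.22 in L5. Of 10 astrocyte genes *Aldoc* (-2.21) was lower, which also counts as the other lower glycolysis gene, and *Gfap*, *Aqp4*, and *Aldh1l1* were below the median in both arrays. None of 11 microglia genes, 5 meningeal and fibroblast genes, and 1 blood gene was 2-fold apart, and of 7 endothelial and mural genes *Vtn* (-1.31) and *Slco1a4* (-1.28, with neither side above the median) were lower. The part of glial RNA in the differences of *Mog*, *Lhfpl3*, and *Aldoc* was not tested.

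Lists that follow handling and sample differences each held at most 1 gene apart, beside 11.3% of all compared genes. Lists this short cannot be told from that share. None of 15 immediate early genes was 2-fold apart (median -0.13). Of 15 heat shock and chaperonin genes *Cct7* (-1.27) was lower, and of 9 housekeeping genes *B2m* (-2.09) was, at 1.20 in L6b and between 3.01 and 3.70 in the other 4 arrays. *Xist* differed by 0.84, and the 3 Y-linked genes of the list were below the median in both arrays. Over all 57 lists, of which the mitochondrially encoded one had no probe set, 738 of 913 listed genes were compared, 39 were higher, and 89 were lower.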

How the data were processed

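Gene expression was measured on 5 GeneChip Mouse Gene 1.0 ST arrays, 1 per group, of which the arrays of association neurons in L6b and L5 were compared. RNA of about 1000 microdissected neurons per group was amplified before labeling, and this amplification precedes every value. The values deposited by the authors are log2 signals with 2 decimals for 35556 probe sets. Affymetrix Expression Console appears in the submitters' processing notes, without a version, and no source used here states how it summarized the probes. Each signal was taken relative to its array's median over these probe sets (5.80 in L6b, 5.77 in L5). A platform annotation gave 1 symbol for 21789 probe sets, several for 1621 (not used), and none for 12146, and 21698 were matched by Entrez identifier to a RefSeq gene table. Of several probe sets for a gene the one brightest on average over the arrays was used, and a gene was compared if it reached the median in L6b or L5. At least 2-fold is a rule of size. Genes named are the markers *Cplx3*, *Ccn2*, and *Kcnab1*, the 15 highest and 15 lowest differences among genes at least 1.0 above the median in the brighter array (predicted genes, chemosensory receptors, small RNAs, and pseudogenes left out), and up to 4 members of each of 57 gene lists. Of the 230 genes so named not all are printed, and further members of these lists are named where a count of 5 or fewer or a family called for it, which was decided after their values were seen. The comparison, the members, and the lists were chosen with earlier results of these data known. Alternatives were other scalings, filters, probe set choices, and thresholds. Samples were grouped by their titles. Only 1 array per group limits the precision, and there is no test. Promoters came from RefSeq (GRCm38.p6) and were searched on both strands. A check of promoter GC content over the gene sets was void, since 79.0% of compared genes have a promoter in the table. Steps were tested on simulated data. Tools were Python 3.11.15, pandas 2.3.3, numpy 2.4.6, and matplotlib 3.10.9.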

Additional observations from a re-analysis of the deposited data

How the results depend on the processing

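The excess of lower over higher genes was found under each of 11 alternatives of scaling, filter, and probe set choice. The count of genes at least 2-fold higher ran from 347 to 513 and that of genes at least 2-fold lower from 686 to 922, and lower genes made up 62.0% to 68.1% of those apart, beside 67.0%. At a 4-fold limit the counts were 119 and 240, and at 1.5-fold they were 927 and 1586. The median of the L6b/SP markers was 0.99 over all 8 members without a filter and 2.30 over the 5 that reached the 75th percentile in either array, as dim members entered in the former and *Nxph4* dropped out in the latter. Of 56 list medians, 25 took both signs over the alternatives, 22 of them with a reported median within 0.2 of 0. The other 3 were those of the sex-linked, GABA-A receptor, and monoamine receptor genes: the sex-linked genes and the GABA-A receptor genes were both at -0.01 without a filter, and the monoamine receptor genes were at -0.285 over the 2 members above the 75th percentile. The latter filter also moved the medians of the GABAergic (-1.44), L2/3 (-1.355), L5 intratelencephalic (-1.3), and oligodendrocyte precursor (2.515) lists. It keeps genes that are bright on 1 side only, such as *Pvalb* and *Gad1* through L5, so it favors large medians. The oligodendrocyte precursor median rests on *Lhfpl3* and *Bcas1*, both kept through L6b alone. Of 134 named genes 2-fold apart, 116 stayed so under every alternative that holds them. *Mdga2*, for example, was at 0.31 with the probe set brightest in L5. No paired analysis was possible because each group is 1 array. For the same reason no replicate could be left out, and the size of the error is unknown. Of the genes 2-fold apart, 94 higher and 210 lower ones have a signal below the array median on 1 side, and their sizes are the least secure.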
